A study of Capra hircus with 12 samples.

Results

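The proteasome genes were followed in the secondary hair follicles of 1.5-year-old cashmere goats (Capra hircus), from which the fine undercoat grows. They were picked by name, as the genes whose symbol starts with PSMA, PSMB, PSMC, PSMD, PSME, PSMF or PSMG and a number. This gave 49 of 20326 genes. One of them, PSMC3IP, codes for a cofactor of recombination and shares only the name, which leaves 48: 19 genes of the core particle (8 alpha and 11 beta), 20 of the regulatory particle (6 ATPases and 14 non-ATPases), 4 activators, 1 inhibitor and 4 assembly chaperones. RNA was sequenced in May and September (anagen, the growth phase), November and December (catagen, regression) and February and March (telogen, rest). Each month had 1 female and 1 male library, 12 in all and 4 per stage. No treatment or genotype separates the groups, and tissue and age are the same in all. The labels call the 2 libraries of a month biological replicates and do not tell whether an animal was sampled more than once. The p-values therefore rest on the spread among these libraries.

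The proteasome degrades proteins that carry ubiquitin chains. Alpha and beta subunits stack into a barrel whose inner surface holds the catalytic sites, contributed by PSMB5, PSMB6 and PSMB7. The regulatory particle caps the barrel: its ATPases (PSMC) unfold the substrate and its other subunits (PSMD) bind ubiquitin and remove it. In immune cells and under interferon, PSMB8, PSMB9 and PSMB10 replace the constitutive catalytic subunits, and PSME1 and PSME2 form an alternative cap. Dedicated chaperones build the barrel (PSMG1 to PSMG4) and the base of the cap (PSMD5, PSMD9 and PSMD10).

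Values are the deposited ones, headed TPM, a scale that corrects for transcript length. Comparisons of level between genes take that heading as given. The summed value per library ran from 904623 to 1127797, and read depth is unknown. Ribosomal protein transcripts (73 genes) took 17.6 to 22.3% of the signal in anagen, 20.6 to 24.8% in catagen and 12.4 to 17.6% in telogen. Transcripts of the mitochondrial genome (13) took 1.53 to 2.42%, 2.07 to 3.51% and 4.63 to 11.8%. The tissue label was checked on markers. Inner root sheath genes (6 of 10 listed were in the files) summed to 16439 to 21105 in anagen, 12565 to 18988 in catagen and 3643 to 12398 in telogen, and hair shaft genes (6 of 10) to 963 to 1177, 824 to 1299 and 242 to 766. Basal and outer root sheath genes (4 of 5) summed to 12190 to 15650, 9880 to 14661 and 6912 to 9076. Summed T and NK cell markers (10 of 10) were 39.7 to 50.0, 37.0 to 52.3 and 66.4 to 92.5. Dermal papilla markers (6 of 6) summed to 72.4 to 88.8, 85.9 to 105 and 105 to 125. Skeletal muscle markers (9 of 12) reached 256 and 257 in the 2 May libraries. Their sums were 27.1 and 22.5 in September, 20.5 to 30.8 in catagen and 9.80 to 17.5 in telogen. No listed marker in the files was at 0 in all libraries. The part of these shifts in the results that follow was not tested, and in bulk RNA fewer cells of a type and less RNA per cell cannot be told apart.

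Most of the genes were well expressed. Over the 12 libraries, the alpha subunits ran from PSMA6 at a mean of 230 to PSMA8, a testis form of the alpha subunits, at 2.83. Among the beta subunits PSMB6 was highest at 246, and PSMB11, which belongs to the thymus cortex, was lowest at 0.185. PSMB11 stayed between 0 and 0.48 in every library and was not tested. The remaining 47 passed the filter on low values, set at 1 or more in 2 or more libraries. The ATPases ran from 44.2 (PSMC5) to 156 (PSMC2) and the non-ATPases from 39.1 (PSMD9) to 394 (PSMD10). The activators ran from 21.5 (PSME3) to 109 (PSME1). The 14 constitutive core subunits, which enter the barrel in equal number, were not equal in transcript level: their means in anagen spanned 3.80-fold, from 69.5 for PSMA4 to 264 for PSMB6. The same pair marked the ends in catagen (3.45-fold) and in telogen (4.67-fold).

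**Figure D1:**
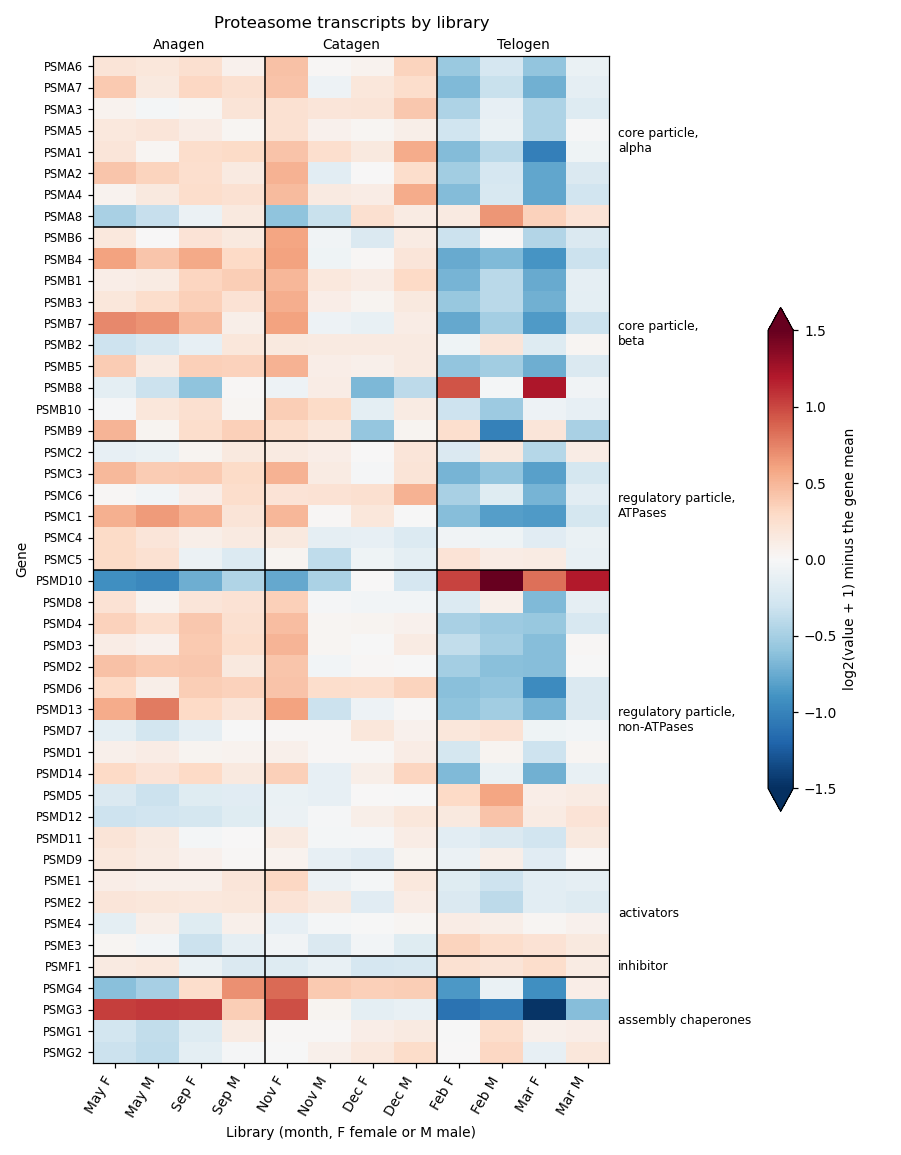
Each row is 1 of the 47 tested genes and each column 1 library; colour is log2(value + 1) minus the gene's mean over the 12 libraries, from blue (lower) to red (higher), with arrows where the scale is exceeded. The 4 telogen columns are blue for most core subunits and red for PSMD10, PSMD5, PSME3 and PSMF1, and the March male is paler than the other telogen libraries.

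In telogen, most subunits of the core particle were lower than in catagen, while PSMD10, PSMD5, PSME3, PSMF1 and PSMB8 were higher. Of the 47 genes, 26 fell and 5 rose (limma, Benjamini-Hochberg adjusted p under 0.05 over all genes tested). Among all 16095 genes tested, 19% were lower and 24.5% were higher, 43.6% together. The median log2 difference was -0.36 for the 47 and 0.07 for all genes tested. All 4 telogen libraries lay below all 4 catagen libraries for 20 of the 47 and above them for 4, where 15.9% and 19.9% of all genes did so. Of 22 members with a mean of at least 100, 17 fell and 1 rose, where 38.4% and 14.7% of all 1147 tested genes of that level did. Of 23 members between 20 and 100, 9 fell and 4 rose, where 26.8% and 22.4% of 5243 genes did. The difference between these level bands was not tested.

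Among the alpha subunits, which form the outer rings and the gate of the barrel, 7 of 8 fell, with a class median log2 difference of -0.59. PSMA1 was at 147 and 129 in the November female and male, 121 and 160 in December, 69.0 and 81.7 in February and 52.9 and 104 in March. The telogen libraries lay below every catagen library, with the March male nearest to them. The log2 difference was -0.88 (SE 0.17, adjusted p = 0.00192, limma). PSMA5 had the smallest of the 7 falls, -0.32 (adjusted p = 0.0268), and lost its call under all 3 other scalings, with averaged month means, and without the November female, the February female or the March female. PSMA8, the one alpha gene that did not fall, was at 1.45 to 3.38 in catagen and 3.07 to 4.86 in telogen, and its difference of 0.48 did not pass (adjusted p = 0.0693).

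Among the beta subunits 6 of the 10 tested fell and 1 rose. The largest fall was that of PSMB4, a structural beta subunit. Its values in the female and male were 285 and 251 in May, 279 and 231 in September, 286 and 179 in November, 189 and 213 in December, 110 and 118 in February and 101 and 150 in March. Every telogen library was below every other library. The log2 difference from catagen was -0.84 (SE 0.16, adjusted p = 0.00168). Of the catalytic subunits, PSMB5, which cuts after hydrophobic residues, had values of 114 to 156 in catagen and 64.8 to 92.9 in telogen, a log2 difference of -0.72 (adjusted p = 0.00135, limma). PSMB7, which cuts after basic residues, went from a mean of 169 ± 42.5 (SD, n = 4) to 99.2 ± 16.9, a difference of -0.75 (adjusted p = 0.0069, limma). PSMB6, which cuts after acidic residues, was at 267 ± 68.4 and 205 ± 28.8, and its difference of -0.36 did not pass (adjusted p = 0.0868, limma). All 14 constitutive core genes had a negative log2 difference, and PSMB2 (-0.15) and PSMB6 were the only 2 that did not pass. PSMB2 was flat in catagen, at 127 to 129, and lay between 101 and 131 in telogen.

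**Figure D2:**
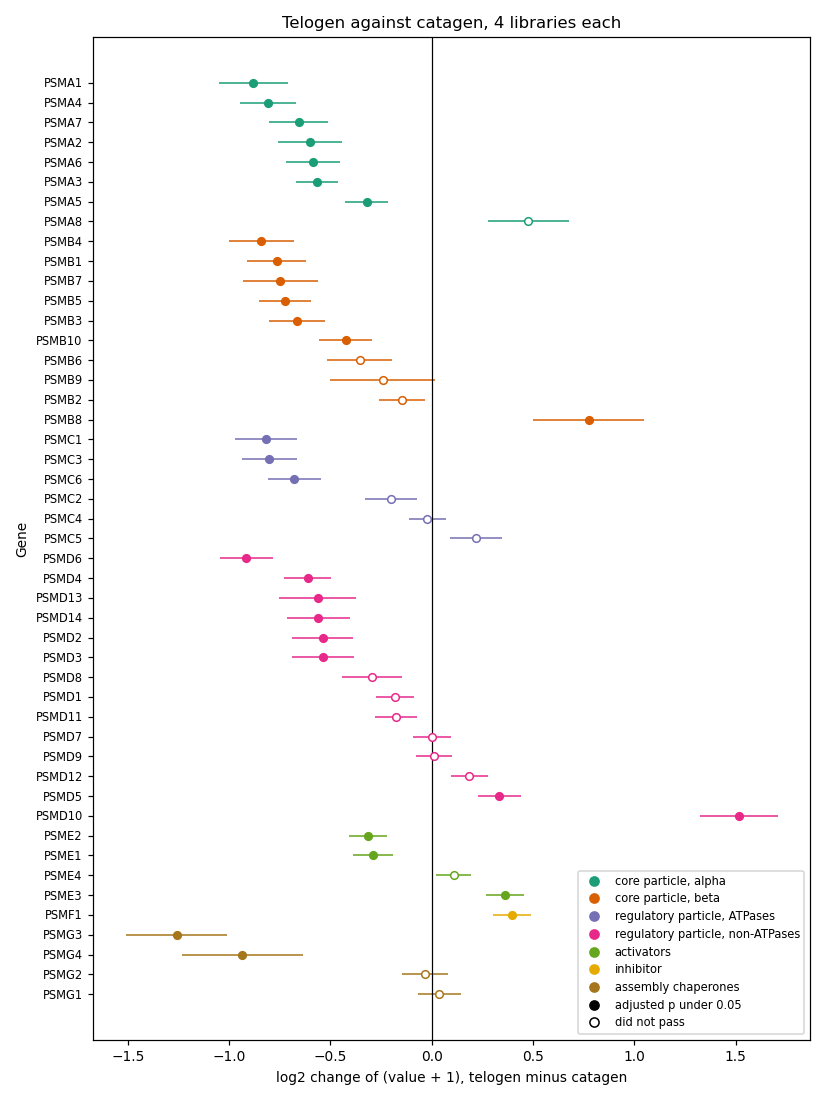
The horizontal axis is the log2 difference of (value + 1), telogen minus catagen, with 4 libraries each; points are the 47 genes grouped and coloured by class, bars are 1 SE, and filled points passed at an adjusted p under 0.05. Core subunits lie mostly left of 0 with PSMB8 at 0.78 as the exception that passed, and PSMD10 stands at 1.52 on the right.

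The regulatory particle was more mixed, with 9 of 20 genes lower and 2 higher in telogen than in catagen. Without the base chaperones PSMD5, PSMD9 and PSMD10, which leave the finished particle, 9 of 17 fell and none rose, with a median of -0.54. Of the ATPases, which form the unfolding ring, PSMC1, PSMC3 and PSMC6 fell. PSMC1 was at 119 and 85.3 in November, 94.35 and 84.0 in December, 53.4 and 47.0 in February and 46.2 and 69.98 in March, female before male. The telogen values did not reach the catagen ones, and the log2 difference was -0.82 (SE 0.15, adjusted p = 0.00165). The other 3 ATPases did not pass: PSMC2 differed by -0.20, PSMC4 by -0.02 and PSMC5 by 0.22.

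Among the non-ATPases the largest fall was that of PSMD6, a lid subunit. It was at 112 and 100 in November, 99.3 and 105 in December, 53.8 and 54.8 in February and 42.9 and 71.3 in March, so that the 2 groups stood well apart. The log2 difference was -0.91 (SE 0.13, adjusted p = 5.10e-04). PSMD4, a ubiquitin receptor of the cap, fell by 0.61 (adjusted p = 0.00177, limma), and PSMD14, the lid enzyme that removes ubiquitin chains, by 0.56 (adjusted p = 0.012). PSMD2 and PSMD3 fell by 0.54 each, and PSMD13 by 0.56, the last without a call under equal sums or when the November female, the February female, the February male or the March female was left out. PSMD1, PSMD7, PSMD8, PSMD11 and PSMD12 did not pass. PSMD4, PSMD14, PSMD2, PSMD3, PSMD1, PSMD7, PSMD8 and PSMD11, as well as PSMC3, PSMC4, PSMC6, PSMA4, PSMA5, PSMB2 and PSMG1, lie outside the rule for named genes and were named after their values were seen.

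PSMD10, an assembly chaperone of the cap's base also known as gankyrin, moved against most of the members, and between telogen and catagen by more than any of them. Its values in the female and male were 172 and 166 in May, 195 and 239 in September, 191 and 234 in November, 327 and 274 in December, 656 and 953 in February and 579 and 742 in March. The lowest telogen library stood above the highest of the other 8. The log2 difference between telogen and catagen was 1.52 (SE 0.19, adjusted p = 3.76e-04), a 2.86-fold higher level on the scale of value + 1. In telogen PSMD10 made up 32.4 to 39.5% of the summed value of the 20 regulatory genes, against 8.22 to 11.5% in anagen and 8.53 to 16.3% in catagen. The genes beside PSMD10 in the reference (assembly ARS1.2) were looked up after its values were seen. ATG4A, on one side, had a mean of 22.7 in catagen and 29.3 in telogen, a log2 difference of 0.34 (adjusted p = 0.0356). VSIG1, on the other, had means of 0.77 to 1.09 over the 3 stages.

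PSMD5, the second base chaperone, rose as well, from 46.1 to 50.5 in the 4 catagen libraries to 53.9 to 76.6 in telogen. The difference was 0.33 (adjusted p = 0.023), and the call was lost with averaged month means and without either November library or either February library. PSMD9, the last of the 3, was level at a mean of 37.7 in catagen and 38.0 in telogen.

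**Figure D3:**
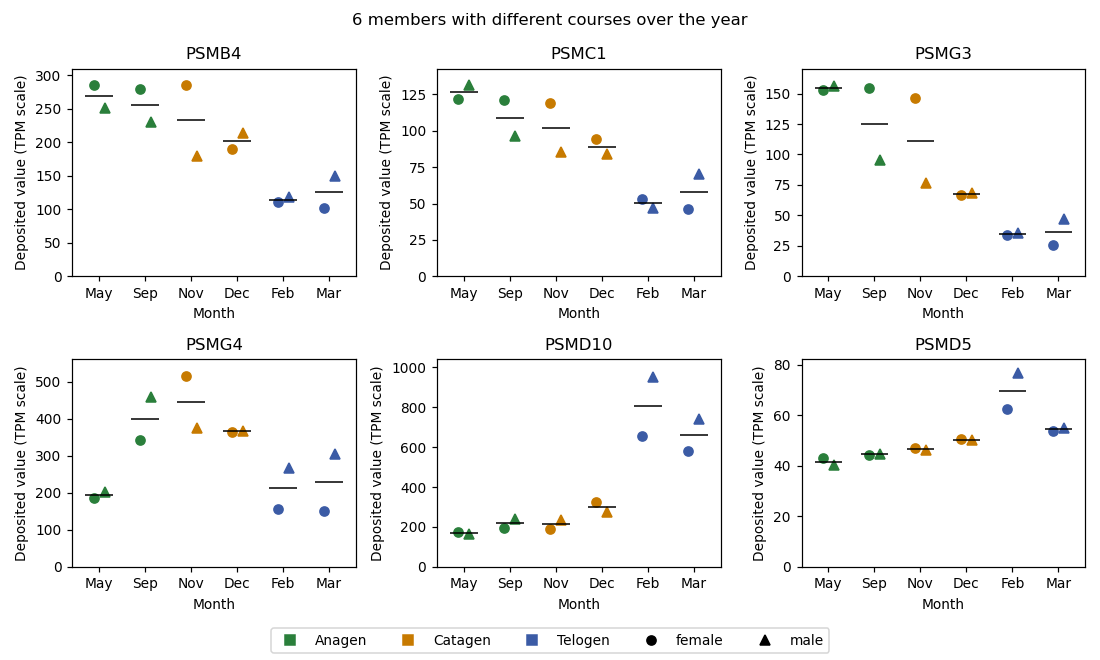
Deposited values (TPM scale, axes from 0) by month for 6 genes; circles are the female library, triangles the male, bars the month's mean, and colour the stage. PSMB4 and PSMC1 are lowest in February and March, PSMG3 goes from 154 in May to 34.6 in February, PSMG4 is highest in November, and PSMD10 and PSMD5 are highest in February.

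These opposite shifts changed the balance of the summed transcripts. The 19 core genes took 0.228 to 0.268% of each library's signal in anagen, 0.221 to 0.261% in catagen and 0.154 to 0.211% in telogen, with the March male at the top of the telogen range and the other 3 at no more than 0.165%. The 20 regulatory genes took 0.193 to 0.220%, 0.192 to 0.203% and 0.189 to 0.253%. The ratio of the regulatory sum to the core sum was 0.812 to 0.846 in anagen, 0.758 to 0.918 in catagen and 1.20 to 1.36 in telogen. With PSMD10 left out of the sum, the ratio was 0.737 to 0.762, 0.694 to 0.768 and 0.811 to 0.874. The telogen ratios stayed above the others without PSMD10, by a smaller margin.

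**Figure D4:**
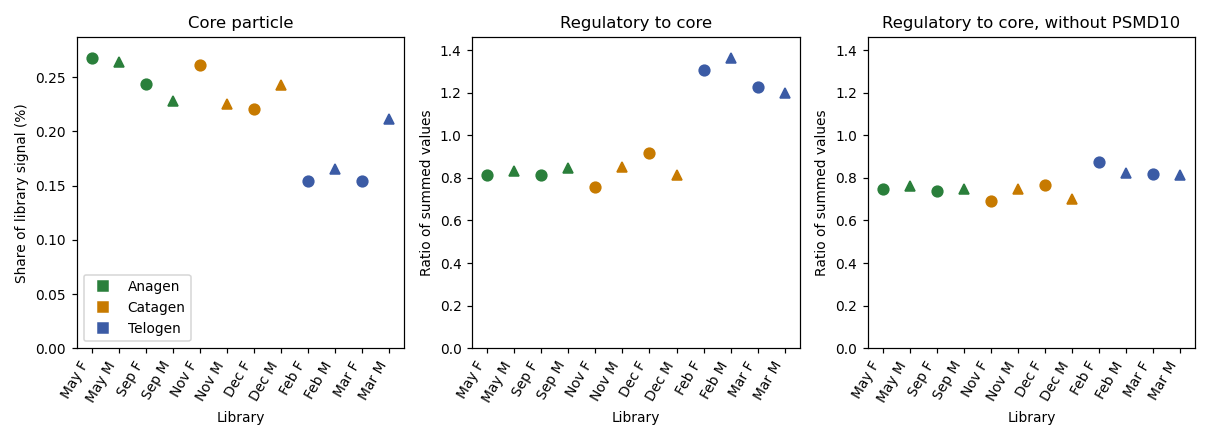
The left plot gives the core particle's share of each library's signal (%), the middle plot the ratio of summed regulatory to summed core values, and the right plot that ratio without PSMD10; circles are female and triangles male libraries, coloured by stage. The telogen ratio of 1.20 to 1.36 comes down to 0.811 to 0.874 without PSMD10.

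The activators split. PSME1 and PSME2, the partners in the interferon-inducible cap, fell in telogen against catagen by 0.29 (adjusted p = 0.0312) and 0.31 (adjusted p = 0.0159) on the log2 scale. PSME2 was at 40.6, 38.6, 31.1 and 38.1 in the catagen libraries and 29.9, 26.5, 31.4 and 30.5 in the telogen ones, with 1 telogen library above the December female. Both calls were lost when libraries were scaled to equal sums, with or without mitochondrial and ribosomal protein transcripts, and with averaged month means. That of PSME1 was also lost under quantile normalization and without the November female, the December male, the February female or the February male. PSME3, the nuclear activator, rose from 18.2 to 20.7 in catagen to 23.8 to 27.2 in telogen, with no overlap (log2 difference 0.36, adjusted p = 0.00832). PSME4, a nuclear activator known from work on histone turnover, did not pass (0.11, adjusted p = 0.317). PSMF1, which inhibits the core particle in the test tube, was at 38.0, 40.4, 36.5 and 36.8 in catagen and 51.1, 50.0, 52.3 and 47.7 in telogen. The 2 groups did not overlap, and the log2 difference was 0.40 (SE 0.09, adjusted p = 0.00521).

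The 4 chaperones of the barrel work as pairs, PSMG1 with PSMG2 and PSMG3 with PSMG4. In telogen against catagen PSMG3 and PSMG4 fell, while PSMG1 (0.04) and PSMG2 (-0.03) did not pass. PSMG3 was at 153 and 156 in May, 155 and 95.6 in September, 146 and 76.4 in November, 67.1 and 68.5 in December, 33.9 and 35.3 in February and 26.0 and 47.0 in March. Telogen lay below catagen in every library, with a log2 difference of -1.26 (SE 0.25, adjusted p = 0.00221). PSMG4 followed another course: 185 and 202 in May, 342 and 459 in September, 517 and 374 in November, 365 and 368 in December, 157 and 267 in February and 150 and 306 in March. Telogen was below catagen, with a log2 difference of -0.93 (adjusted p = 0.0232, limma). Anagen and telogen did not differ by the test (0.40, adjusted p = 0.275), and the May values of PSMG4 lay within the telogen range. The fall from catagen lost its call without the November female, the February female or the March female. Without both May libraries the anagen and telogen difference was 0.92 (adjusted p = 0.0305).

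In anagen, most members stood higher than in telogen. Of the 47 genes, 27 were higher in anagen and 8 lower, against 23.7% and 29.2% (52.9% together) of all genes tested, and the median log2 difference was 0.40 for the members and -0.07 for all genes. For 26 of the members all anagen libraries lay above all telogen ones and for 4 below, where 20.1% and 23.2% of all genes did so. This comparison shares the telogen libraries with the one above. By class, 13 of 18 core genes, 11 of 20 regulatory genes, 2 of 4 activators and 1 of 4 PSMG chaperones were higher. PSMG3 had the largest difference, 1.95 (SE 0.25, adjusted p = 1.66e-04, limma), a 3.85-fold higher level in anagen. PSMB4 (1.13), PSMC1 (1.12) and PSMB7 (1.10) followed, each with all anagen libraries above all telogen ones. PSMD13, a lid subunit, was higher by 0.96 and PSMA7 by 0.73. PSMD10 was lower in anagen by 1.91 (adjusted p = 8.79e-05), a 3.76-fold difference.

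The other 7 genes lower in anagen than in telogen were PSMD5 (-0.50), PSMD12 (-0.48), PSMB8 (-0.78), PSME3 (-0.36), PSMA8 (-0.52), PSMG1 (-0.28) and PSMG2 (-0.31). PSMD12, a lid subunit, was at 39.0, 39.6, 40.1 and 42.6 in anagen, 45.5, 47.8, 51.4 and 54.6 in catagen and 53.6, 65.4, 52.7 and 55.8 in telogen. Anagen did not overlap with either of the other stages, and the difference from telogen had an adjusted p of 9.83e-04. For PSMA8, PSMG1 and PSMG2 the call was lost with averaged month means and without either May library, the September female or the February male, for PSMA8 and PSMG1 also without the March female, and for PSMG1 and PSMG2 without the March male. The call of PSMA8 was also lost under quantile normalization and without the filter on low values. The call of PSMB8 was lost without the May male, the September female, the February female or the March female. PSMF1 did not pass here (-0.21, adjusted p = 0.0802), as its May values of 48.1 and 48.6 stood near those of telogen.

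Catagen did not differ from anagen in any member by the test (limma, 0 of 47), where 0% of all genes tested were higher and 0.0559% lower. An unadjusted p under 0.05 was found for 7 of the 47 and for 15.7% of all genes tested. The smallest p was that of PSMD12, higher in catagen by 0.30 (unadjusted p = 0.00629, adjusted p = 0.263). PSMD12, PSMG2, PSMD7 and PSMD5 had all 4 catagen libraries above all 4 anagen libraries, 4 of 47 where 3.4% of all genes did so, and no member had them all below (3.63% of all genes). PSMG3 differed by -0.69 (adjusted p = 0.265), with anagen at 95.6 to 156 and catagen at 67.1 to 146.

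By month, the members differed where telogen began and where it ended. Between February and December 4 were higher and 10 lower, where 8.9% and 7.69% of all genes were. Between May and March 13 were higher and 4 lower, where 13.9% and 13.4% were. September against May, November against September, December against November and March against February gave 0 of 47 each by limma. In these steps 3, 1, 3 and 2 members had an unadjusted p under 0.05, as did 9.77, 1.86, 3.65 and 3.95% of all genes tested. By the adjusted p, these 4 steps had 0.0311% of all genes higher and 0.106% lower, 0% and 0.0186%, 0% and 0%, and 0% and 0.00621%. PSMD10 was called at both ends, at 1.40 in February against December (adjusted p = 0.016) and -1.95 in May against March (adjusted p = 0.00281). Among the genes that passed in February against December, the next largest differences were those of PSMD6 (-0.90, adjusted p = 0.0251) and PSMC1 (-0.82, adjusted p = 0.0359). In May against March PSMG3 was higher by 2.11 (adjusted p = 0.0064), a call lost without the May female, and PSMB7 by 1.29 (adjusted p = 0.0103), a call lost without either May library or the March female. Over all months, 26 of 47 differed by the F test, where 32.7% of all genes did. Mean values were lowest in February for 21 of the 47 and in March for 11, and highest in May for 17, in February for 9 and in November for 8. The same was not counted over all genes, so these numbers do not set the members apart.

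These month counts rested on few libraries. In each fit named here, the count of calls over all genes tested moved the same way as that of the members. The changes are therefore not particular to the members. Whether the members kept an excess over all genes in these fits was not tested. February against December gave 0 calls without the December female, the December male or the February male, and 23 without either March library. It gave 2 without the February female or the May male, 3 without the May female and 4 without either September library. May against March gave 1 and 2 when the female or the male of May was left out, and 3 and 26 when that of March was. The F test gave 8 without the May male or the February male, 9 without the May female, 12 and 13 without the September female and male, 13 without the February female, and 15 and 14 without the December female and male. PSMD10 lost its call in February against December without either December library or the February male. PSMD6 lost it without any 1 of the December and February libraries, and PSMC1 without any 1 of the May, December and February libraries.

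The inducible catalytic subunits were low beside their constitutive partners. PSMB8 was at 20.9 and 18.4 in May, 14.9 and 23.5 in September, 21.9 and 25.2 in November, 14.2 and 17.5 in December, 45.6 and 22.7 in February and 55.3 and 22.4 in March, female before male. The 2 telogen females stood above all other libraries, and the telogen males lay within the range of catagen. The difference between telogen and catagen was 0.78 (SE 0.27, adjusted p = 0.0363). This call was lost without the November female, either December library, the February female, the March female or both May libraries together. PSMB9 was at 6.44 to 12.3 in catagen and 4.49 to 12.2 in telogen (log2 difference -0.24, adjusted p = 0.473). PSMB10 fell by 0.42 (adjusted p = 0.0197), from 19.3 to 27.9 in catagen to 14.3 to 20.2 in telogen, and lost its call under both scalings to equal sums, with averaged month means, and without either November library or the February male. Of the 3 inducible genes, PSMB8 was thus called higher and PSMB10 lower, while PSMB9 did not pass.

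As a share of the PSMB5 value, PSMB8 was 14.8 and 15.5% in May, 10.7 and 17.1% in September, 14.0 and 21.6% in November, 12.5 and 14.7% in December, 63.6 and 30.2% in February and 85.3 and 24.1% in March. All 4 telogen libraries lay above the other 8. The mean log2 ratio was higher in telogen than in catagen by 1.50 and lower in anagen than in telogen by 1.60, each with p = 0.0286 by a two-sided exact permutation test, the smallest that 4 against 4 allows. After adjustment over the 9 ratio tests this was 0.0857, so neither passed. PSMB10 to PSMB7 was lower in anagen than in telogen by 0.73 with the same p-values. These ratios also moved with the constitutive genes. PSMB5 differed by -0.72 in telogen against catagen and by 0.82 in anagen against telogen. PSMB10 itself was higher in anagen than in telogen, by 0.38, a call lost in 8 of 22 alternatives, while PSMB7 was higher by 1.10. PSMB9 to PSMB6 differed between telogen and catagen by 0.12 (exact permutation p = 0.771).

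**Figure D5:**
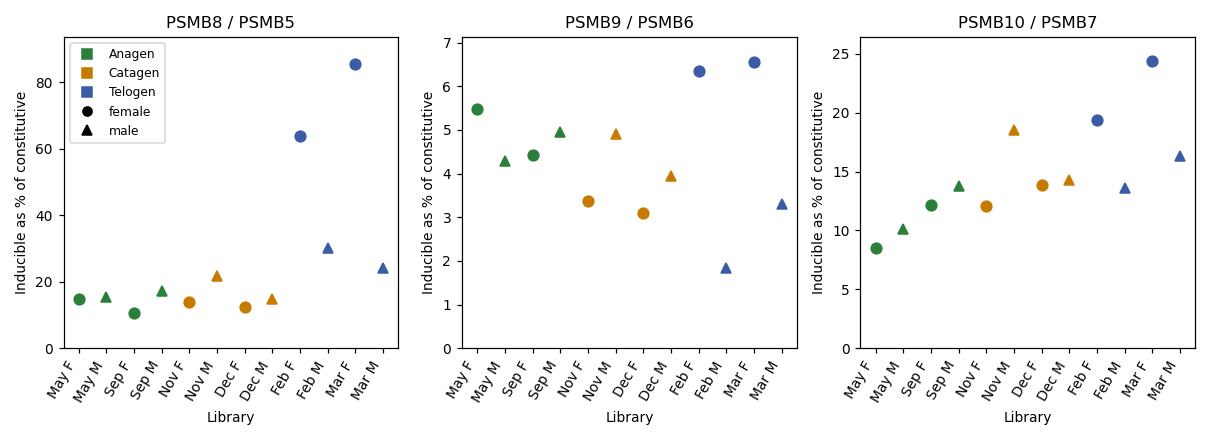
Each plot gives an inducible catalytic subunit as a percentage of its constitutive partner in every library, for PSMB8 to PSMB5, PSMB9 to PSMB6 and PSMB10 to PSMB7; circles are female and triangles male libraries, coloured by stage, and each axis starts at 0. PSMB8 reaches 63.6 and 85.3% in the telogen females and 30.2 and 24.1% in the telogen males, against 10.7 to 21.6% in the other libraries.

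Sex made no difference that passed. With month as a block, 0 of 47 genes passed for male against female (limma), where 0.0559% of all genes did. An unadjusted p under 0.05 was found for 2 of the 47 and for 7.36% of all genes tested. The smallest p-values were those of PSMC5, lower in males by 0.17, and PSMC6, higher by 0.21, both ATPases (adjusted p = 0.67). After the PSMB8 values were seen, a sex by stage term was added. The male minus female difference of PSMB8 was lower in telogen than in catagen, with a log2 difference of -1.36 (SE 0.34; unadjusted p = 0.00254, adjusted p = 0.245), and that of PSMB9 as well, at -1.23 (adjusted p = 0.27). None of the 47 passed, and 5 had an unadjusted p under 0.05. Among all genes tested 0.0186% passed and 13.2% had an unadjusted p under 0.05. TAP1 and TAP2, peptide transporter genes that lie beside PSMB8 in the reference, had the same sign in this term, at -0.84 and -0.95. Neither passed (limma, adjusted p = 0.406 and 0.312). PSMB10 was at -0.23 in this term, PSME2 at -0.21 and PSME1 at 0.06. In the telogen females and males, summed myeloid markers (10 of 11 in the files) were 97.6 and 111 against 78.8 and 60.3, and summed T and NK cell markers 72.2 and 66.4 against 92.5 and 79.2. Summed endothelial markers (6 of 6) were 179 and 215 against 94.9 and 123, and melanocyte markers (5 of 5) 44.0 and 37.4 against 20.1 and 23.9. Their part in the PSMB8 values was not tested.

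Other genes that serve the proteasome were counted from fixed lists, again in telogen against catagen, where 19% of all genes tested fell and 24.5% rose. Of 10 assembly and accessory factors, 4 fell and 1 rose. SHFM1, a small subunit of the cap under another name, was at 297, 176, 230 and 268 in catagen and 84.0, 127, 79.7 and 116 in telogen (log2 difference -1.25, adjusted p = 5.59e-04, limma). POMP, which matures the core particle, was at 167, 126, 138 and 163 in catagen and 77.1, 104, 77.7 and 108 in telogen, with no overlap (-0.70, adjusted p = 0.00177). PITHD1 differed by -0.61. Of 7 genes for the transcriptional control of the proteasome, 4 fell and 1 rose. NFE2L1, the factor that raises proteasome genes when the proteasome is impaired, fell by 0.35 (adjusted p = 0.0183). NFE2L2, the related factor of the oxidative stress response, rose by 0.67 (adjusted p = 0.00458). MAFK, a small partner of both, fell by 0.81.

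Among 20 genes for ubiquitin and the delivery of substrates, 9 fell and 2 rose. RPS27A, which encodes ubiquitin fused to a ribosomal protein, fell by 1.34, and UBB, a gene for polyubiquitin, by 0.64. The rise of UBA1, the main ubiquitin-activating enzyme, was 0.22, and that of UBQLN2 0.37; both were named after their values were seen. Of 16 genes for antigen presentation and interferon, 3 rose and 2 fell, shares no higher than those of all genes. CALR, a chaperone of the endoplasmic reticulum, fell by 0.46, TAPBP, which loads peptides on class I molecules, rose by 0.60 and IRF2 rose by 0.42. TAP1 was at 10.1 to 13.5 in catagen and 5.81 to 15.9 in telogen and did not pass (-0.14, adjusted p = 0.642). Of 7 cytosolic peptidases, which trim the products of the proteasome, 2 fell and 1 rose, which with so few genes is near the shares of all genes: LAP3 fell by 1.03, BLMH fell by 0.56 and NPEPPS rose by 0.29. None of these lists had a gene that passed between catagen and anagen.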

How the data were processed

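Total RNA of secondary hair follicles was extracted with a TRIzol method before Illumina sequencing, per the labels. The submitters' processing notes name kallisto 0.46.1 and sleuth 0.30.0; the genome build is not given in the sources used here. The deposited signal values are headed TPM, but their sums differ between libraries. The step that made them differ is not described, and read depth is unknown. Values were taken as log2(value + 1), which understates changes of low genes; fold changes are on that scale. The 16095 genes that reached 1 in 2 or more libraries went into limma 3.58.1 in R 4.3.3 (moderated variances, mean-variance trend), 1 group per stage or month, male against female with month as a block, and p-values were adjusted by Benjamini-Hochberg over all genes. Ratios used an exact permutation test (scipy 1.17.1).

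The members and lists were chosen with earlier results of these data known. Named genes were the catalytic and inducible subunits, the activators, PSMA8, PSMB11 and PSMF1; the largest rise and fall and the highest and lowest mean of each class; members against their class; up to 3 largest month changes; and up to 3 called genes of highest mean per list. One of these list genes is not reported here. All 49 names matched the ARS1.2 reference table. No 2 libraries were copies: at most 0.548% of values were equal. Data were simulated with 200 of 16095 genes changed by a log2 of 1. The telogen and catagen fit recovered 87.5%, the May and March fit 43.5%, the F test 40.5% and the sex fit 84.5%. The simulated noise was the spread within months. The 2 months of a stage did not differ in it, so the recovery of the telogen and catagen fit may be too high. Alternatives changed the constant, filter, scaling, variance trend, replicate block, averaging of months and libraries. Sequences are not printed, as no sequence table was used here.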

Additional observations from a re-analysis of the deposited data

Results flagged for a closer look

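Each gene and each of 3 summed measures was searched, stage by stage, for 1 library far from the other 3 of its stage. Of 150 groups, 10 had one; chance gives about 1 in 20. The November female was that library in 7 of the 10, each time above the other catagen libraries. It had PSMB2 at 128.6 (others 126.69 to 126.96), PSMB5 at 155.97 (113.84 to 118.94), PSMD2 at 129.33 (93.9 to 98.27), PSMD4 at 181.03 (134.02 to 136.49), PSMD8 at 225.65 (170.84 to 173.73), PSMG3 at 145.96 (67.11 to 76.43) and PSMG4 at 516.74 (365.4 to 374.31). This library also had the largest summed signal, 1127797. In the December male PSMC6 was at 148.45 (others 119 to 122). In anagen PSMB5 was at 118.63 in the May male (137.75 to 141.31) and PSMG3 at 95.59 in the September male (152.58 to 155.91).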

How the results depend on the processing

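Read depth is unknown and no interval for single values can be given. Stage and month are nested, sex and replicate number are the same, and a stage has 4 libraries. Under the alternatives without a library left out, the members that fell in telogen against catagen numbered 21 to 26 and those that rose 4 to 7; equal sums gave 21 and 7. Over all genes, equal sums turned the telogen against catagen split of 3948 higher and 3063 lower into 4369 and 2052, and equal sums without mitochondrial and ribosomal protein transcripts shifted the anagen against telogen median by -0.11. The members lower in anagen than in telogen numbered 5, not 8, when month means were averaged and 5 without both May libraries. Over all genes tested the same 2 settings gave 4087 and 3222 lower, not 4701.

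With 1 library left out, telogen against catagen gave 3 to 5 higher (3 without the November female or the February female) and 21 to 27 lower, anagen against telogen 25 to 29 higher and 4 to 9 lower (4 without the September female, 5 without either May library or the February male), February against December 0 to 23, May against March 1 to 26 and the F test 8 to 34. Over all 15778 to 16087 genes tested, telogen against catagen then gave 2958 to 4132 higher and 2299 to 3413 lower. Anagen against telogen gave 3311 to 4043 higher and 3976 to 4663 lower. The month and F test counts over all genes also moved widely with the library left out, so this is not particular to the members. No paired analysis was used as the main one: male minus female differences of 2 months correlated at -0.26 to 0.44 (median 0.11, over 0.1 in 9 of 15 pairs). The replicate block left the stage counts at 5 and 26 for telogen against catagen and 27 and 8 for anagen against telogen, and changed no call of a named gene; it gave 11 in February against December, 15 in May against March and 25 in the F test.

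Some small differences changed sign, and the cause was not tested. The ratio of PSMB8 to PSMB5 in catagen against anagen (0.10) ranged from -0.056 to 0.19 with 1 library left out, reversing to -0.031 without the September female and -0.056 without the November male. PSMB9 to PSMB6 ranged from -0.10 to 0.45 in telogen against catagen, reversing to -0.086 without the February female and -0.10 without the March female, and from -0.15 to 0.41 in anagen against telogen, reversing to -0.15 without the February male. In telogen against catagen, PSMB9 went to 0.0090 and PSMG1 to -0.015 without the February male. PSMC4 went to 0.052 under quantile normalization, 0.073 under equal sums, 0.021 under equal sums without mitochondrial and ribosomal protein transcripts, 0.054 without the November female and 0.0027 without the March female. PSMG2 went to 0.058 and 0.0077 under the same 2 scalings, 0.017 without the December male and 0.038 without the March female. PSMD7 went to -0.015 and -0.013 without either November library, -9.29e-06 without the December male and -0.030 and -0.047 without either February library. PSMD9 went to -0.012, -0.029, -0.032 and -0.0063 without the November male, December female, February male and March male. With 1 library left out, these differences began from as low as -0.42 for PSMB9 and -0.063 for PSMC4, and reached up to 0.049 for PSMD7, 0.056 for PSMD9 and 0.074 for PSMG1. None of these passed. The planned comparison of promoter windows was not run, as it needs promoter sequences.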
